A study of Mus musculus with 6 samples.

Results

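A set of 10 genes that mark the inner lining of blood vessels was followed through 3 kinds of mouse cell culture: Cdh5, Pecam1, Kdr, Flt1, Tek, Tie1, Emcn, Eng, Esam and Vwf. The genes were chosen by symbol, were matched to the Entrez identifiers of the deposited count tables, and made up 10 of 20007 identifiers, all 10 of them among the 15272 genes that had enough reads to be tested. Their identifiers were 12562 (Cdh5), 18613 (Pecam1), 16542 (Kdr), 14254 (Flt1), 21687 (Tek), 21846 (Tie1), 59308 (Emcn), 13805 (Eng), 69524 (Esam) and 22371 (Vwf). Each culture type was represented by 2 RNA-seq libraries. The group named MEFs held embryonic fibroblasts of the KM mouse strain taken from embryos at 13.5 days post coitum. The group named CiSCs came from passaged fibroblasts of the same strain and embryonic age induced with a set of unnamed small molecules toward cells that resemble Sertoli cells. The group named MSCs held Sertoli cells, the nurse cells of the seminiferous tubule, cultured from testes of KM mice at postnatal day 60. No sample is labelled as passaged fibroblasts without the small molecules, so the small molecules, the passage and the time in culture cannot be told apart between CiSCs and MEFs. Nor is it stated if replicate libraries stem from different animals or dishes. P-values therefore measure only the spread between these libraries, which may be technical. The 3 comparisons share libraries and are not independent of each other.

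Endothelial cells line all vessels and are held together by VE-cadherin (Cdh5) at their adherens junctions, with PECAM-1 (Pecam1) and ESAM (Esam) at the same cell borders. Vascular endothelial growth factor (VEGF) reaches them through VEGFR2 (Kdr), the main signalling receptor, while VEGFR1 (Flt1) binds VEGF tightly and also exists as a soluble decoy. Angiopoietins act through the receptor TIE2 (Tek), with TIE1 (Tie1) as its partner, and endoglin (Eng) is a co-receptor for BMP9 and TGF-beta ligands. Von Willebrand factor (Vwf) is stored in endothelial granules and binds platelets, and endomucin (Emcn) is a sialomucin of capillaries and veins. Several of these genes are also expressed outside endothelium: Pecam1, Flt1 and Eng in the monocyte and macrophage lineage, Vwf in megakaryocytes, Eng in mesenchymal and stromal cells. In the testis, vessels run between the tubules, beside the Leydig cells, and do not enter the epithelium that Sertoli cells form.

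Promoter sequence is shown first, because most of the 10 genes are textbook targets of ETS factors, which bind around a GGAA core, and because the genes did not move together in these cultures. The RefSeq promoter table (mouse build GRCm38.p6, 250 bases before to 50 after each gene's start) held 6 of the 10 genes: Eng, Emcn, Tek, Tie1, Kdr and Flt1. The data were aligned to another build, so these coordinates belong to the RefSeq table alone. Eng, which had its highest level in MSCs, and Tie1, which moved less than most, are printed in full for the 250 bases before the start. They lie at chr2:32646345-32646594 on the plus strand for Eng and at chr4:118489850-118490099 on the minus strand for Tie1. Sequences run 5′ to 3′ on the gene's strand, and capitals mark AGGAAG or CGGAAG, 2 longer forms of the ETS word that contain GGAA, on either strand (CTTCCT is AGGAAG on the opposite strand).
Eng: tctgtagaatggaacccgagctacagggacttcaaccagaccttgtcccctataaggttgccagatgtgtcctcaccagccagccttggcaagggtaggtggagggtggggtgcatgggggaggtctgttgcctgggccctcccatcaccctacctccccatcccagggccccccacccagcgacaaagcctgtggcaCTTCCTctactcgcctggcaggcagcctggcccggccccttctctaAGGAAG
Tie1: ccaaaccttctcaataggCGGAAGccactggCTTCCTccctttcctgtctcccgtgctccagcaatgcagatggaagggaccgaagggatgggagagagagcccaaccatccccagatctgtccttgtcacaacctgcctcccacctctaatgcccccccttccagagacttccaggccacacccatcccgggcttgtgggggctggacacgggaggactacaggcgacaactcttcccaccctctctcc
For Flt1 and Emcn, the genes that were highest in MEFs and in CiSCs, the 30-base stretches around the same words are given. Those of Flt1 lie on the minus strand at chr5:147726123-147726152 and chr5:147726047-147726076, and those of Emcn on the plus strand at chr3:137340892-137340921 and chr3:137340973-137341002.
Flt1, farther from the start: cgcccctccgggAGGAAGaagagggtaggt
Flt1, nearer to the start: aggtgccggggtAGGAAGtgggctggggaa
Emcn, farther from the start: caagaagggtctCTTCCTgttcaaatccca
Emcn, nearer to the start: agtggctgccaaAGGAAGagagaggaaaaa
Both strands of the whole 300-base window were searched. GGAA was present in 6 of 6 windows and in 95.6% of 14841 promoters of genes in the count tables, so its presence sets no gene apart. AGGAAG was present in 4 of 6 windows (Eng, Emcn, Tie1 and Flt1) and in 34.0% of all promoters. CGGAAG was present in the Tie1 window alone of the 6, and in 24.8% of all promoters. The TATA word TATAAA was found in the Flt1 window alone of the 6 and in 9.72% of all promoters. Base composition differed as well: the 250 bases before the start were 70.4% G or C for Flt1, 62.4% for Eng, 61.6% for Kdr, 60.4% for Tie1, 51.2% for Tek and 40.8% for Emcn, beside a median of 57.6% over all promoters. AGGAAG therefore stood before genes that were highest in each of the 3 culture types. A match of letters is a description of the sequence and shows no binding.

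Library totals were 19294670.69 to 20418587.3 counts, so that 1 read was worth 0.0468 to 0.0543 CPM, the read count scaled for library depth, after a further scaling by the trimmed mean of M values (TMM). All levels below are on this scale, with mean ± SD and n = 2 per group. A group with no read at all could still hold up to 3 reads, which is 0.0769 CPM in MEFs, 0.0709 in CiSCs and 0.0806 in MSCs. Reads carried no molecular identifiers, so such limits and the counting intervals given for rare genes cover counting error only. The MEF libraries differed more from each other than the others did: 1416 genes were over 2-fold apart between them, against 477 between the CiSC libraries and 415 between the MSC libraries. Pecam1 and Tek passed the read filter through the MSC libraries alone, so for those 2 genes being tested at all depended on the group where they were highest.

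The 10 genes did not move as a set. MSCs had the highest mean level for 7 of them (Cdh5, Pecam1, Kdr, Tek, Tie1, Eng and Esam), MEFs for Flt1 and Vwf, and CiSCs for Emcn. In MSCs against MEFs, 8 genes were higher and 2 were lower, where 22.5% of all tested genes were called higher and 20.0% lower (edgeR, adjusted p under 0.05 over all tested genes). Pecam1 and Tek, counted among the 8, could be tested only through MSCs, so their calls add no support, and their values enter the medians below. With only genes of 5 CPM or more in 2 libraries or more tested, 5 of the 7 tested were higher and 2 were lower. In CiSCs against MEFs, 3 were higher, 5 were lower and 2 were not called, where 19.6% of all genes were called higher and 21.3% lower. In CiSCs against MSCs, 2 were higher, 7 were lower and 1 was not called, where 17.7% of all genes were called higher and 25.1% lower. Pecam1 was among the lower genes here, and 5 were lower with the 5 CPM filter. The median log2 fold change of the 10 genes was 2.67 in MSCs against MEFs, -1.05 in CiSCs against MEFs and -1.92 in CiSCs against MSCs, while the medians over all tested genes were 0.010, -0.0022 and -0.025. In these bulk samples, fewer cells of a type and less RNA per cell cannot be told apart.

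**Figure D1:**
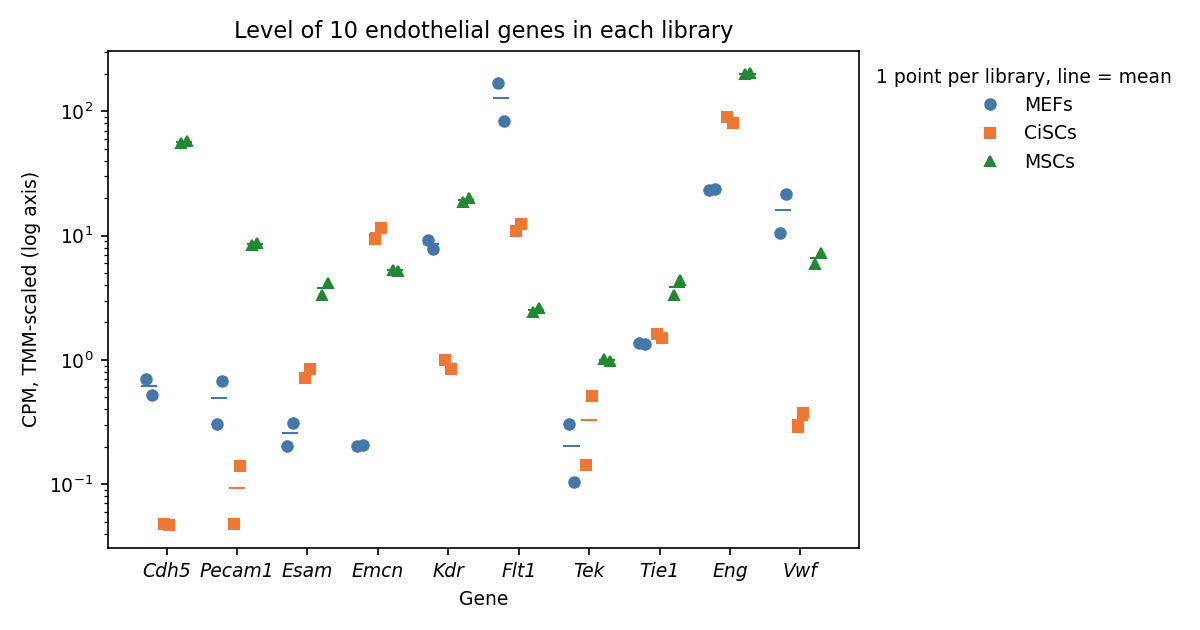
Level of each of the 10 genes (x axis) in CPM on a log axis (y axis), with 1 point per library and a line at each group's mean. Cdh5 spans from 0.0468 CPM in CiSCs2 to 57.9 CPM in MSCs2, while Flt1 and Vwf have their highest points in MEFs and Emcn in CiSCs.

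**Figure D2:**
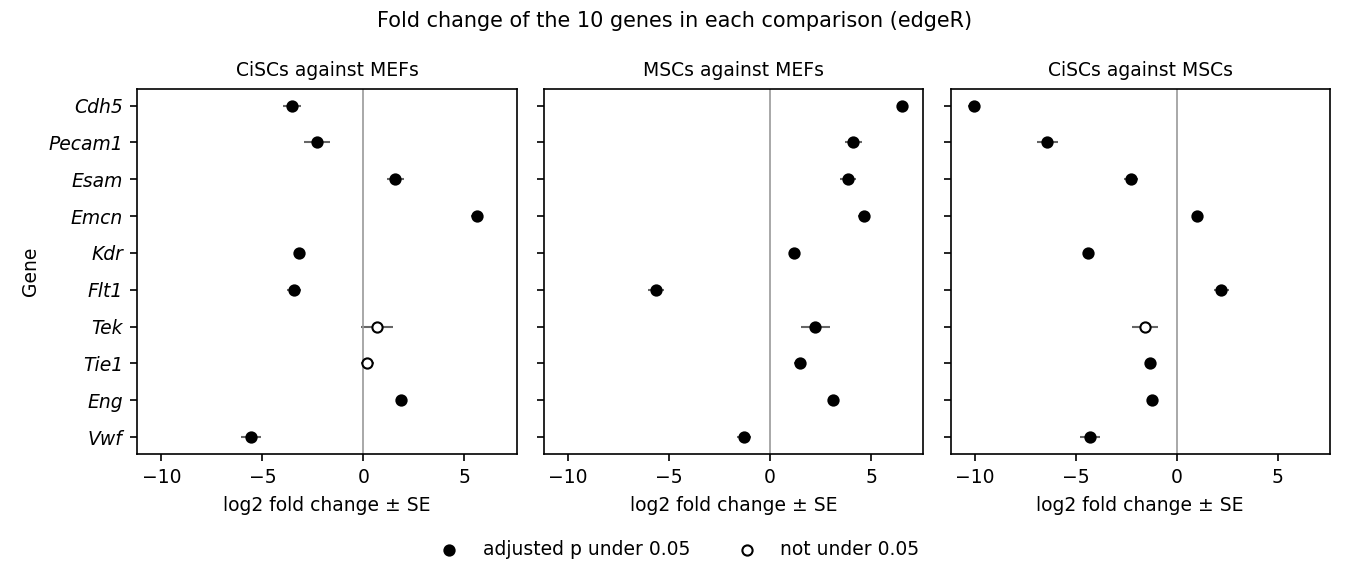
Log2 fold change of each gene (x axis, bars are ± SE) in the 3 comparisons, 1 panel each, from edgeR's fit to all 6 libraries, with filled points for adjusted p under 0.05. In MSCs against MEFs 8 genes lie right of 0 and Flt1 and Vwf lie left of it, while in CiSCs against MEFs both directions occur. Pecam1 and Tek were tested only through MSCs.

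Among the junction and adhesion genes, Cdh5, the gene of VE-cadherin and the most specific endothelial gene of the 10, had the widest range of levels. It had 0.708 and 0.520 CPM in MEFs1 and MEFs2, 0.0477 and 0.0468 CPM in CiSCs1 and CiSCs2, and 55.9 and 57.9 CPM in MSCs1 and MSCs2. The CiSC values stand for 1 read in each library, the MEF values for 14 and 10 reads, and the MSC values for 1052 and 1066 reads. No libraries of different groups overlapped. Cdh5 was 91.6-fold higher in MSCs than in MEFs (log2 fold change 6.52 ± 0.21 SE, edgeR adjusted p = 1.09e-05). It was lower in CiSCs than in MEFs (log2 fold change -3.54 ± 0.44 SE, edgeR adjusted p = 0.00127), with a counting ratio of MEFs to CiSCs of 13.0 and a 95% interval from 3.23 to 114. MSCs exceeded CiSCs by a counting ratio of 1205, with an interval from 333 to 9954 (edgeR adjusted p = 7.98e-06). Markers of testis Leydig cells were also highest in MSCs, with a summed level of 1692 and 1731 CPM against 11.3 to 13.1 CPM in the other libraries. In CiSCs against MEFs all 7 tested Leydig markers were not called. In both of those groups 8 of the 10 listed were under 1 CPM, so a fall could hardly have been called. The part of Leydig cells in the Cdh5 values was not tested.

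Pecam1 encodes the adhesion molecule CD31, which endothelial cells share with platelets and leukocytes. It stood at 0.303 and 0.676 CPM in MEFs, 0.0477 and 0.140 in CiSCs and 8.40 and 8.64 in MSCs, again with no overlap between groups. The level in MSCs was 17.2-fold that in MEFs (log2 fold change 4.11 ± 0.42 SE, edgeR adjusted p = 4.71e-04). CiSCs held 4 reads of Pecam1 in all against 317 in MSCs, a counting ratio of MSCs to CiSCs of 90.2 with an interval from 34.9 to 333 (edgeR adjusted p = 1.55e-04). The lower level in CiSCs than in MEFs (log2 fold change -2.29 ± 0.66 SE, edgeR adjusted p = 0.0323) was not called without MEFs2 (adjusted p = 0.121), CiSCs1 (0.155), CiSCs2 (0.0639), MSCs1 (0.0747) or MSCs2 (0.0744). The libraries set its size too: the Pecam1 log2 fold change in CiSCs against MEFs was -1.62 without MEFs2 and -3.22 without CiSCs2. Without MEFs2 it was 4.78 in MSCs against MEFs, and without CiSCs2 it was -7.30 in CiSCs against MSCs.

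Esam, a tight-junction adhesion molecule of endothelium and platelets, had 0.202 and 0.312 CPM in MEFs, 0.716 and 0.842 in CiSCs and 3.35 and 4.18 in MSCs. All 3 groups were in this order with no overlap, unlike Cdh5 and Pecam1, for which CiSCs were lowest. Esam was 14.3-fold higher in MSCs than in MEFs (log2 fold change 3.84 ± 0.40 SE, edgeR adjusted p = 5.00e-04) and 4.80-fold lower in CiSCs than in MSCs (-2.26 ± 0.34 SE, adjusted p = 0.00227). The 2.99-fold higher level in CiSCs than in MEFs had an edgeR adjusted p of 0.0274. This Esam call was lost without MEFs1 (adjusted p = 0.0777), CiSCs1 (0.0885), CiSCs2 (0.139), MSCs1 (0.0657) or MSCs2 (0.0718), and by DESeq2 (0.0745). The deposited Esam counts were whole numbers in no library, and the rule by which fractions were assigned is not given in the sources used here.

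Emcn was the 1 gene of the 10 with its highest level in CiSCs. Its levels were 0.202 and 0.208 CPM in MEFs, which is 4 reads in each, 9.45 and 11.5 CPM in CiSCs, and 5.32 and 5.22 CPM in MSCs. CiSCs, which had the fewest Cdh5 reads, thus had the most Emcn, with no overlap between groups. Emcn was 49.6-fold higher in CiSCs than in MEFs (log2 fold change 5.63 ± 0.30 SE, edgeR adjusted p = 3.50e-05) and 24.9-fold higher in MSCs than in MEFs (4.64 ± 0.30 SE, adjusted p = 8.04e-05). The 1.99-fold difference between CiSCs and MSCs was smaller (log2 fold change 0.99 ± 0.20 SE, edgeR adjusted p = 0.00863). That last call for Emcn was lost without CiSCs2 (adjusted p = 0.0888), MSCs1 (0.0662) or MSCs2 (0.0709).

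The VEGF receptors moved in opposite directions between MEFs and MSCs. Kdr, the gene of VEGFR2, had 9.21 and 7.85 CPM in MEFs, 1.00 and 0.842 in CiSCs, and 18.7 and 20.0 in MSCs. It was 2.27-fold higher in MSCs than in MEFs (log2 fold change 1.18 ± 0.18 SE, edgeR adjusted p = 0.00277), 9.20-fold lower in CiSCs than in MEFs (-3.20 ± 0.22 SE, adjusted p = 9.72e-05) and 20.8-fold lower in CiSCs than in MSCs (-4.38 ± 0.22 SE, adjusted p = 2.68e-05). The Kdr level in MEFs thus lay much closer to MSCs than the Cdh5 level did.

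Flt1, the gene of VEGFR1, had 169 and 84.2 CPM in MEFs, 10.8 and 12.5 in CiSCs, and 2.45 and 2.61 in MSCs. Its group order was the reverse of that of Esam, Eng and Tie1, again with no overlap. Flt1 was 50.1-fold lower in MSCs than in MEFs (log2 fold change -5.65 ± 0.40 SE, edgeR adjusted p = 1.09e-04) and 10.9-fold lower in CiSCs than in MEFs (-3.44 ± 0.34 SE, adjusted p = 4.65e-04). CiSCs in turn were 4.61-fold above MSCs (2.20 ± 0.37 SE, adjusted p = 0.00371). The MEF libraries were 2.01-fold apart in Flt1, with MEFs1 the higher. Macrophage and leukocyte markers, some of whose cells express Flt1, were also highest in MEFs, where they summed to 15146 CPM in MEFs1 and 24410 CPM in MEFs2.

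Within a library, the ratio of Flt1 to Kdr counts does not depend on how the library was scaled. It was 18.4 and 10.7 in MEFs, 10.8 and 14.8 in CiSCs, and 0.131 and 0.130 in MSCs. MEFs and CiSCs overlapped in this ratio although both receptors were lower in CiSCs, and the MSC libraries were far below them. Gene length enters the ratio equally in all libraries.

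**Figure D3:**
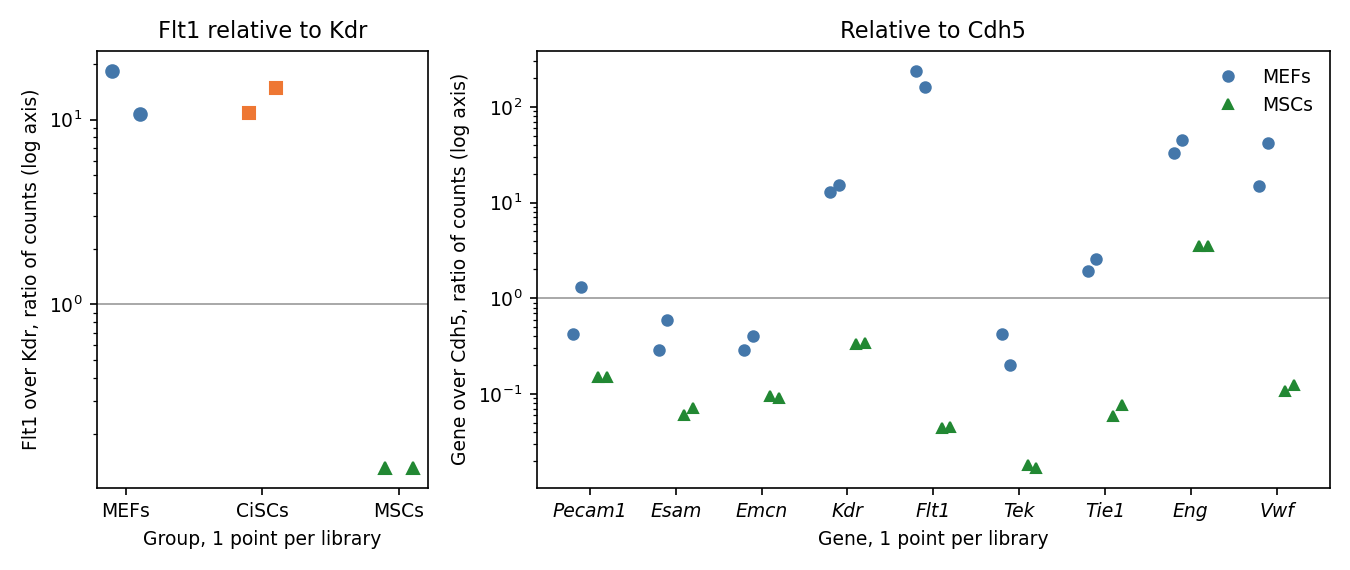
Left, the ratio of Flt1 to Kdr counts per library (y axis, log scale) by group (x axis); right, the ratio of each of the other 9 genes to Cdh5 (y axis, log scale) in MEFs and MSCs, 1 point per library. MSCs sit at 0.131 and 0.130 in the left panel against 10.7 to 18.4 in MEFs and CiSCs, and in the right panel Flt1 goes from 201 in MEFs to 0.0444 in MSCs, while Emcn goes from 0.343 to 0.0926. All ratios to Cdh5 fall in MSCs by construction, because Cdh5 had the largest fold of the 10. CiSCs are left out of the right panel because each library held 1 read of Cdh5.

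The ligands of these receptors were read from a list of 8 genes, made up of VEGF ligands, co-receptors and the VEGFR3 gene Flt4. Flt4 is also in the lymphatic list below, and it was among the genes lower in MSCs than in MEFs. Of these, 3 were higher, 3 were lower and 2 were not called in MSCs against MEFs. In CiSCs against MEFs 1 was higher and 4 were lower. Over all tested genes, 22.5% were called higher and 20.0% lower in the first comparison and 19.6% and 21.3% in the second. Vegfa, the main ligand of VEGFR1 and VEGFR2, stood at 83.6 ± 11.9 CPM in MEFs, 159 ± 7.38 in CiSCs and 365 ± 26.9 in MSCs (SD, n = 2). It was higher in MSCs than in MEFs (log2 fold change 2.13 ± 0.15 SE, edgeR adjusted p = 1.24e-04) and in CiSCs than in MEFs (0.93 ± 0.15 SE, adjusted p = 0.00357). Vegfd, a ligand of VEGFR3, had 67.1 ± 2.55 CPM in MEFs, 6.42 ± 0.379 in CiSCs and 814 ± 32.7 in MSCs. Pgf, the placental growth factor, which binds VEGFR1 and not VEGFR2, was low in MEFs and CiSCs (0.872 and 0.449 CPM) and had 9.25 ± 0.825 CPM in MSCs (log2 fold change against MEFs 3.40 ± 0.26 SE, edgeR adjusted p = 1.43e-04). Vegfc fell in both other cultures, from 28.1 ± 2.50 CPM in MEFs to 9.26 ± 0.395 CPM in CiSCs and 8.76 ± 0.0947 CPM in MSCs. Vegfb stood at 50.9 ± 18.2 CPM in MEFs, 38.0 ± 3.20 in CiSCs and 27.7 ± 0.118 in MSCs. Its lower level in MSCs than in MEFs (log2 fold change -0.87 ± 0.25 SE, edgeR adjusted p = 0.0297) was not called with only those 2 groups fitted (0.0532). MSCs, with the least Flt1, thus had the most Vegfa, Vegfd and Pgf but the lowest means of Vegfb and Vegfc. In CiSCs the co-receptor Nrp2 was at 45.7 ± 5.95 CPM against 341 ± 113 CPM in MEFs (log2 fold change -2.90 ± 0.25 SE, edgeR adjusted p = 2.68e-04), while Nrp1, named here after its values were seen, was not called in any comparison (161, 180 and 228 CPM in MEFs, CiSCs and MSCs). Without MEFs1, 2 genes of this list were higher in CiSCs than in MEFs.

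The TIE receptors were low in all 3 cultures, with their highest levels in MSCs. Tie1 had 1.37 and 1.35 CPM in MEFs, 1.62 and 1.497 in CiSCs, and 3.30 and 4.40 in MSCs. MEF and CiSC libraries did not overlap, but the difference was not called (log2 fold change 0.20 ± 0.30 SE, edgeR adjusted p = 0.629), and its counting ratio of 1.15 had an interval from 0.787 to 1.68. Tie1 was 2.82-fold higher in MSCs than in MEFs (log2 fold change 1.497 ± 0.29 SE, edgeR adjusted p = 0.00739), a call that was lost without MSCs2 (adjusted p = 0.0733). It was 2.46-fold lower in CiSCs than in MSCs (-1.30 ± 0.29 SE, edgeR adjusted p = 0.0114), which was not called without CiSCs1 (adjusted p = 0.0733), CiSCs2 (0.0860) or MSCs2 (0.106). Tie1 counts, like those of Esam, were whole in no library.

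Tek, the gene of the angiopoietin receptor TIE2, was rare everywhere, with 6 and 2 reads in MEFs, 3 and 11 in CiSCs, and 19 and 18 in MSCs. These reads correspond to 0.303 and 0.104 CPM, 0.143 and 0.515 CPM, and 1.01 and 0.978 CPM. MEFs and CiSCs overlapped (log2 fold change 0.67 ± 0.80 SE, edgeR adjusted p = 0.532), with a counting ratio of 1.61 and an interval from 0.631 to 4.44. The Tek difference between CiSCs and MEFs turned to -0.53 without CiSCs2, which held 11 of the 14 CiSC reads. Tek was higher in MSCs than in MEFs by a counting ratio of 4.85 with an interval from 2.22 to 12.1 (log2 fold change 2.25 ± 0.72 SE, edgeR adjusted p = 0.0453). That call ended without MEFs2 (adjusted p = 0.135), CiSCs1 (0.0516), CiSCs2 (0.0532), MSCs1 (0.177) or MSCs2 (0.167), and by DESeq2 (0.103). Without MEFs1 the Tek log2 fold change was 3.15 in this comparison and 1.58 in CiSCs against MEFs, where it was 1.29 without CiSCs1. The lower level in CiSCs than in MSCs was not called (log2 fold change -1.57 ± 0.66 SE, edgeR adjusted p = 0.102), although the counting interval of CiSCs over MSCs ran from 0.166 to 0.630 and a fit to those 2 groups alone gave an adjusted p of 0.0429. This log2 fold change was -0.93 without CiSCs1 and -2.74 without CiSCs2. Depth thus limited what could be said of Tek in each comparison.

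Of 6 genes that act with the TIE receptors, Angpt4, an angiopoietin that binds TIE2, followed the order of Tie1 over a wider range. It had 1.18 ± 0.340 CPM in MEFs, 11.3 ± 1.13 in CiSCs and 25.5 ± 1.70 in MSCs, and was higher in CiSCs (log2 fold change 3.26 ± 0.24 SE, edgeR adjusted p = 1.37e-04) and in MSCs (4.43 ± 0.25 SE, adjusted p = 4.56e-05) than in MEFs. Angpt2, the context-dependent antagonist, was at 15.5 ± 0.516, 24.2 ± 0.970 and 15.4 ± 0.995 CPM in MEFs, CiSCs and MSCs. It was higher in CiSCs than in MEFs (edgeR adjusted p = 0.0118), which was not called without CiSCs1 (0.106) or CiSCs2 (0.0812). Ptprb, the phosphatase VE-PTP that dampens TIE2 and VE-cadherin signalling, fell from 16.5 ± 9.11 CPM in MEFs to 3.76 ± 0.219 CPM in CiSCs (log2 fold change -2.13 ± 0.40 SE, edgeR adjusted p = 0.00660) and 3.60 ± 0.401 CPM in MSCs (-2.19 ± 0.40 SE, adjusted p = 0.00573). The first Ptprb call was lost without CiSCs2 (adjusted p = 0.0516) and the second without MSCs2 (0.0583). MSCs, with the most Cdh5, thus had little of the phosphatase that binds VE-cadherin.

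Levels of Eng, the gene of endoglin, were 23.2 and 23.5 CPM in MEFs, 90.3 and 80.9 in CiSCs, and 198 and 202 in MSCs. It rose 3.67-fold in CiSCs over MEFs (log2 fold change 1.87 ± 0.13 SE, edgeR adjusted p = 9.18e-05) and 8.56-fold in MSCs over MEFs (3.10 ± 0.13 SE, adjusted p = 1.88e-05). CiSCs were 2.34-fold below MSCs (-1.22 ± 0.12 SE, adjusted p = 3.80e-04). Eng and Esam shared the group order MEFs, CiSCs, MSCs. Eng overlaps Fpgs on the opposite strand, the strand of the libraries is not given in the sources used here, and Eng counts were not whole in 3 of 6 libraries, so reads of Eng and Fpgs cannot be told apart where the genes overlap.

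The summed level of the 10 genes was 215 and 140.5 CPM in the MEF libraries, 114 and 109 CPM in the CiSC libraries, and 303 and 313 CPM in the MSC libraries. With Eng left out, MEFs rather than MSCs had the highest mean sum, at 155 CPM. The MSC mean was then 108 CPM and the CiSC mean 26.2 CPM. Which of MEFs and MSCs had the higher sum thus depended on Eng.

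Of 13 genes of the endoglin signalling branch, 10 had enough reads to be tested. In MSCs against MEFs 6 were higher, 1 was lower and 3 were not called, with a median log2 fold change of 1.36 beside 0.010 for all genes. In CiSCs against MSCs 7 were lower and 3 were not called. The shares of all tested genes were 22.5% higher and 20.0% lower in the first comparison and 25.1% lower in the second. Acvrl1, the gene of the type I receptor ALK1 that pairs with endoglin, had 28.9 ± 2.08 CPM in MEFs, 8.36 ± 0.152 in CiSCs and 77.4 ± 0.0765 in MSCs. It was higher in MSCs than in MEFs (log2 fold change 1.42 ± 0.13 SE, edgeR adjusted p = 2.85e-04) and lower in CiSCs than in MEFs (-1.79 ± 0.13 SE, adjusted p = 1.37e-04), so endoglin and its partner receptor went in opposite directions in CiSCs. Smad6, an inhibitory SMAD induced by this branch, was 6.37 ± 0.848 CPM in MEFs, 6.54 ± 0.143 in CiSCs and 60.3 ± 4.78 in MSCs (MSCs against MEFs 3.24 ± 0.16 SE, adjusted p = 3.23e-05). Id1, a direct target, had 32.1 ± 8.38, 50.8 ± 4.51 and 106 ± 2.80 CPM in MEFs, CiSCs and MSCs (MSCs against MEFs 1.72 ± 0.20 SE, adjusted p = 8.79e-04). In CiSCs against MEFs, 2 genes of this branch were higher and 2 were lower, where 19.6% of all genes were called higher and 21.3% lower. The 2 higher ones were Smad7 (edgeR adjusted p = 0.0206) and Id1 (0.0376), and both calls were lost without CiSCs1, CiSCs2, MSCs1 or MSCs2, while 5 genes were higher without MEFs1. Leaving out CiSCs2 lowered the 7 genes of the endoglin branch that were lower in CiSCs than in MSCs to 4, and the 1 gene of it that was lower in MSCs than in MEFs, Id2 (edgeR adjusted p = 0.0122), was not called without MSCs1 (0.0560) or MSCs2 (0.105). Of the ligands, Gdf2 (BMP9) had at most 0.140 CPM and Bmp10 at most 0.0506 CPM in any library, both named after their values were seen.

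Vwf, the gene of von Willebrand factor, was highest in MEFs. Its levels were 10.5 and 21.7 CPM in MEFs, 0.286 and 0.374 in CiSCs, and 5.95 and 7.23 in MSCs, with no overlap between groups. It was 47.9-fold lower in CiSCs than in MEFs (log2 fold change -5.58 ± 0.49 SE, edgeR adjusted p = 2.61e-04) and 19.6-fold lower in CiSCs than in MSCs (-4.29 ± 0.49 SE, adjusted p = 6.85e-04). MSCs were 2.45-fold below MEFs (-1.29 ± 0.36 SE, adjusted p = 0.0277), a call that was lost without MSCs1 (adjusted p = 0.166) or MSCs2 (0.106). Without MEFs2, Vwf was -0.68 in MSCs against MEFs and -4.97 in CiSCs against MEFs on the log2 scale. Macrophage and leukocyte markers had the same group order as Vwf, and their part in its level was not tested. The MEF libraries were 2.07-fold apart in Vwf with MEFs2 the higher, whereas MEFs1 was the higher in Flt1. The ratio of Vwf to Flt1 was accordingly 0.0621 and 0.258 in MEFs, 0.0264 and 0.0300 in CiSCs, and 2.43 and 2.77 in MSCs.

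Markers of other Vwf-containing cells were low. Of 10 platelet and megakaryocyte genes, 9 were in the tables, and their summed level was 4.15 and 9.62 CPM in MEFs, 9.16 and 5.29 in CiSCs and 2.87 and 4.24 in MSCs. MEFs overlapped each of the other groups in this sum, and CiSCs lay above MSCs. Itga2b, the integrin subunit CD41, had 1.82 ± 0.0714 CPM in MEFs, 2.86 ± 0.328 in CiSCs and 1.24 ± 0.399 in MSCs, and was not called against MEFs in either culture. The platelet genes Gp9 and Gp6, named after their values were seen, did not exceed 0.140 CPM in any library. Among 11 genes of endothelial activation and storage, 5 were higher, 2 were lower and 4 were not called in CiSCs against MEFs. Over all tested genes, 19.6% were called higher and 21.3% lower. Plat, the tissue plasminogen activator, which endothelial cells store and release, had 145 ± 11.8 CPM in MEFs, 402 ± 21.4 in CiSCs and 106 ± 9.30 in MSCs (CiSCs against MEFs 1.48 ± 0.14 SE, edgeR adjusted p = 3.51e-04). Icam1, a leukocyte adhesion molecule, was 149 ± 30.8, 8.39 ± 0.350 and 117 ± 4.14 CPM in MEFs, CiSCs and MSCs (CiSCs against MEFs -4.15 ± 0.19 SE, adjusted p = 2.42e-05). Thbd, the gene of thrombomodulin, was higher in both CiSCs (118 ± 0.639 CPM) and MSCs (240 ± 9.98 CPM) than in MEFs (60.2 ± 4.32 CPM). In this list CiSCs against MEFs gave 3 genes higher without CiSCs2, and 1 gene lower without CiSCs1 or CiSCs2.

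To rank the genes within a culture, levels were divided by coding length, as CPM per kilobase. In MEFs the order was led by Flt1 at 31.7 ± 15.1, Eng at 11.9 ± 0.101, Kdr at 2.11 ± 0.238 and Vwf at 1.91 ± 0.939, and the last 2 were within their spread. In CiSCs it was led by Eng at 43.7 ± 3.38, Emcn at 13.4 ± 1.86 and Flt1 at 2.92 ± 0.294, with Esam next at 0.659. In MSCs Eng stood at 102 ± 1.32, Cdh5 at 24.2 ± 0.595, Emcn at 6.73 ± 0.0917, Kdr at 4.79 ± 0.233, Pecam1 at 3.88 ± 0.0764 and Esam at 3.19 ± 0.499, and Flt1 stood at 0.632 with only Tek below it. Cdh5 followed only Eng in MSCs and was last in CiSCs at 0.0201. Tek was last in both MEFs (0.0605) and MSCs (0.295). The rank of Emcn depended on the length used, with 783 coding bases in a longest transcript of 2588. Divided by the longest transcript, chosen after seeing the data, Emcn was 5th in MSCs, below Kdr and Pecam1. In MEFs it was 9th rather than 6th, and in CiSCs it stayed 2nd.

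The ratio of each gene's counts to those of Cdh5 was set side by side for MEFs and MSCs, gene by gene and not between genes. For Flt1 it was 201 ± 54.5 in MEFs and 0.0444 ± 0.000921 in MSCs (SD, n = 2), with 14 and 10 Cdh5 reads in MEFs. The Eng ratio was 39.0 ± 8.78 in MEFs and 3.51 ± 0.0409 in MSCs. For Vwf the values were 28.3 ± 19.1 and 0.116 ± 0.0129, and for Kdr 14.1 ± 1.48 and 0.339 ± 0.00818. Emcn was closest to constant among the 9, at 0.343 ± 0.0808 in MEFs against 0.0926 ± 0.00354 in MSCs. Cdh5 had the largest fold of the 10 in MSCs over MEFs, so every ratio to it is lower in MSCs by construction, and only the sizes differ between genes.

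Likeness was measured as the root mean square distance between log2 CPM profiles over the 6 libraries, each centred on its mean, and is a description over libraries that fall into 3 groups. The closest pair of the 10 was Eng and Esam at 0.415, followed by Tek and Tie1 at 0.557. Tek had few reads, and the prior count of 2 makes the changes of such a gene smaller on this scale. Among all genes, Tie1 ranked 402nd from Tek, and Tek ranked 2342nd from Tie1. Kdr and Flt1 were 3.10 apart, Cdh5 and Pecam1 1.39, and Cdh5 and Flt1 5.34, the widest of all pairs. Among 14525 tested genes with a symbol, the nearest to Cdh5 were Acsbg1 (0.235), Gstm6 (0.275), Dpep1 (0.308), Heph (0.520), Folr1 (0.569) and Hsd11b1 (0.577). Pecam1, the nearest of the 10, ranked 169th. By Pearson correlation none of those 6 genes was among the nearest 6. The nearest to Eng were Nxph4 (0.148), Csdc2, Cpxm1, Efnb1, Bmerb1 and Abhd2, with Esam 122nd. The nearest to Pecam1 were 4930486L24Rik (0.170), Mmp27, Bco1, Ankrd55, Ppm1e and Isyna1, and those nearest to Tek were Pdpr, Prrg1, Synpr, Epcam, Vmn1r65 and Gm21451. None of the 10 genes was among the 6 nearest to Cdh5, Pecam1, Eng or Tek.

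Wider lists of endothelial genes were mixed in the same way. Of 25 further markers of vessels, 20 could be tested. In MSCs against MEFs 10 of the vessel markers were higher, 5 lower and 5 not called, in CiSCs against MEFs 9 were higher, 5 lower and 6 not called, and in CiSCs against MSCs 6 were higher, 12 lower and 2 not called. Of all tested genes, 22.5% were called higher and 20.0% lower in MSCs against MEFs. In CiSCs against MEFs these shares were 19.6% and 21.3%, so 5 of 20 lower is near the share in both. In CiSCs against MSCs they were 17.7% and 25.1%. With only genes of 5 CPM or more in 2 libraries or more tested, 4 vessel markers were higher in MSCs than in MEFs and 5 were lower in CiSCs than in MSCs. At an adjusted p under 0.01, 5 were higher in CiSCs than in MEFs and 3 were lower in MSCs than in MEFs. Robo4, an endothelial guidance receptor, had 2 reads in MEFs and 1 in CiSCs, and 16.3 and 20.5 CPM in MSCs. Nos3, the endothelial nitric oxide synthase, had 0.155 ± 0.148 CPM in MEFs, 0.118 ± 0.0350 in CiSCs and 2.88 ± 0.0818 in MSCs. Both genes passed the read filter through MSCs alone, the group where they were high, so their calls add no support. Tspan18 rose from 0.587 ± 0.315 CPM in MEFs to 3.42 ± 0.454 CPM in CiSCs and 112 ± 5.42 CPM in MSCs. Cd93, shared by endothelium and myeloid cells, went the way of Vwf, with 265 ± 18.5 CPM in MEFs, 2.55 ± 0.102 in CiSCs and 41.3 ± 5.83 in MSCs. Cldn5, the endothelial claudin, and Gpihbp1, a capillary protein, had no read in MEFs or CiSCs and at most 0.851 and 0.160 CPM in MSCs, and both were chosen after their values were seen. The count of vessel markers higher in CiSCs than in MEFs fell to 3 without CiSCs1 and 4 without CiSCs2. Without MSCs2, 6 of them were higher in MSCs than in MEFs, and 3 and 2 were lower without MSCs1 and MSCs2. In CiSCs against MSCs, 3 were higher without CiSCs2, MSCs1 or MSCs2.

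Of the genes of arteries, veins and sprouting tip cells that could be tested, most were higher in MSCs than in MEFs. Of 13 tested, 10 were higher, 2 were lower and 1 was not called in MSCs against MEFs, with a median log2 fold change of 2.61. Over all tested genes, 22.5% were called higher and 20.0% lower, and the median was 0.010. Of the 15 genes listed, 7 were under 1 CPM in MEFs, 8 in CiSCs and 2 in MSCs. Genes such as Dll4 could be tested only through MSCs, so the counts and medians that involve MSCs partly reflect the read filter. With only genes of 5 CPM or more in 2 libraries or more tested, 6 genes of this list were called higher. The same filter gave 5 lower in CiSCs against MSCs. In CiSCs against MEFs 5 were higher and 4 lower, where 19.6% of all genes were called higher and 21.3% lower. In CiSCs against MSCs 8 were lower and 5 were not called, where 25.1% of all genes were called lower. Dll4, the arterial Notch ligand, was at 0.0766 ± 0.0348, 0.0940 ± 0.0655 and 3.41 ± 0.166 CPM in MEFs, CiSCs and MSCs, and it passed the read filter through MSCs alone. Apln, the tip-cell peptide apelin, was 62.6 ± 1.06 CPM in MSCs against 3.75 ± 1.70 CPM in MEFs (log2 fold change 4.06 ± 0.31 SE, edgeR adjusted p = 1.44e-04). Nr2f2, a venous transcription factor also made by stromal cells, had 22.2 ± 3.45, 51.6 ± 4.32 and 173 ± 9.10 CPM. Notch4 joined Emcn in having its highest mean in CiSCs, with 0.381 ± 0.391 CPM in MEFs, 22.6 ± 2.66 in CiSCs and 12.8 ± 0.689 in MSCs (CiSCs against MEFs 5.86 ± 0.49 SE, adjusted p = 2.17e-04). Leaving out MEFs1 or MEFs2 gave 2 artery, vein and tip genes higher in CiSCs than in MSCs, and leaving out CiSCs2 gave 2 lower in CiSCs than in MEFs.

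The transcription factors that govern endothelial genes did not follow Cdh5 as a list. Of 16 tested, 4 were higher and 10 were lower in MSCs than in MEFs, and 3 were higher and 8 lower in CiSCs than in MEFs. The shares of all tested genes were 22.5% higher and 20.0% lower in the first comparison and 19.6% and 21.3% in the second. In CiSCs against MSCs they were 17.7% and 25.1%. Sox18 had 0.103 ± 0.0745 CPM in MEFs, 0.0472 ± 0.000653 in CiSCs and 2.33 ± 0.838 in MSCs, and passed the read filter through MSCs alone. Its levels in MEFs and CiSCs were too near the floor for a fall to be called (edgeR adjusted p = 0.457). That comparison therefore does not show if Sox18 followed Cdh5. Epas1, the gene of HIF-2 alpha, was 13.2 ± 3.77, 9.66 ± 0.234 and 63.3 ± 1.81 CPM (MSCs against MEFs 2.26 ± 0.21 SE, adjusted p = 3.12e-04). The ETS factor Fli1, shared with blood cells, was highest in MEFs at 29.7 ± 1.42 CPM, against 8.91 ± 0.0898 CPM in CiSCs and 5.83 ± 0.709 CPM in MSCs. Lmo2, Lyl1 and Tal1, which act together in blood and early vessels, were also highest in MEFs, and Lmo2 had 114 ± 27.3, 1.42 ± 0.248 and 11.98 ± 0.122 CPM. Erg, the ETS factor most closely tied to endothelium, was at most 1.63 CPM in any library and was not called in any comparison; it is named after its values were seen. In CiSCs against MSCs 5 of these factors were higher and 7 lower, and 2 were higher without CiSCs1 or MSCs1 and 3 without CiSCs2 or MSCs2.

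**Figure D4:**
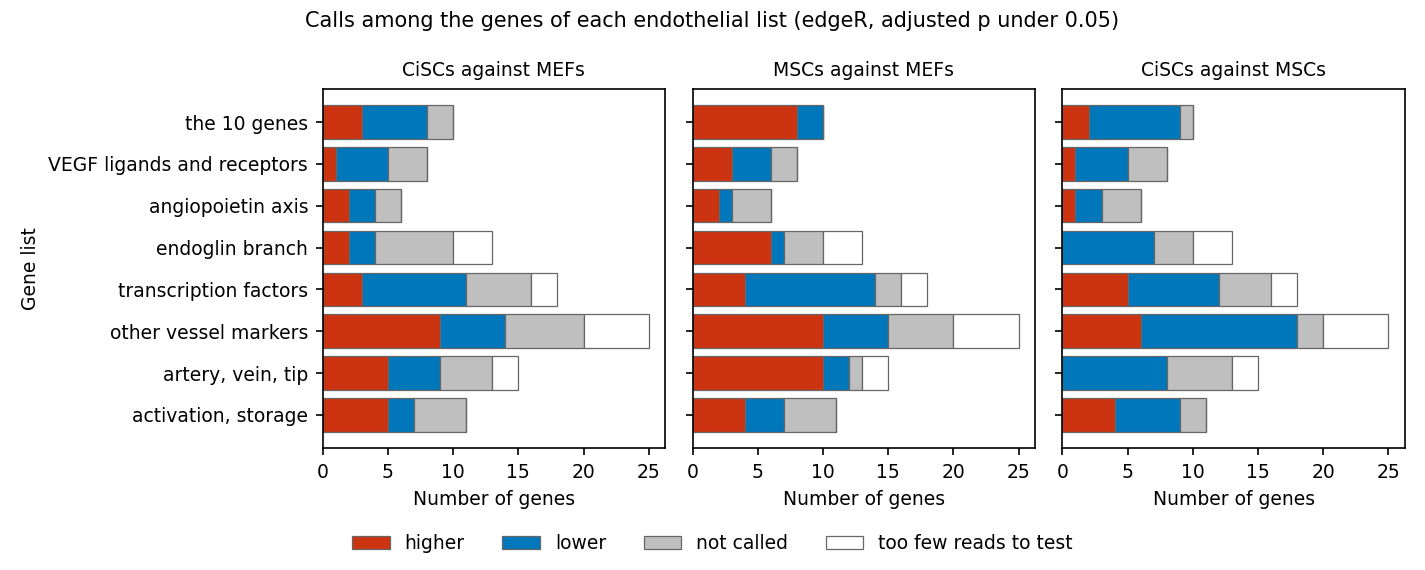
Number of genes (x axis) called higher, lower or not called by edgeR (adjusted p under 0.05), or with too few reads to test, in each endothelial list (y axis), 1 panel per comparison. The artery, vein and tip list has 10 genes higher in MSCs than in MEFs, a count that partly reflects the read filter. The transcription factor list has 10 lower. Over all tested genes, 22.5% were called higher and 20.0% lower in that comparison.

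Markers of other cell types differed between the cultures too, and their part in the values above was not tested. The macrophage and leukocyte list fell in 18 of 18 members in CiSCs against MEFs, where 21.3% of all genes were called lower. The list fell in 17 of 18 members in MSCs against MEFs, where that share was 20.0%. Its summed level was 15146 and 24410 CPM in MEFs, 40.8 and 61.3 in CiSCs, and 1963 and 1880 in MSCs. Vwf had the same group order and, like this sum, was the higher in MEFs2, whereas Flt1 was the higher in MEFs1 and lower in MSCs than in CiSCs. Ptprc, the gene of the leukocyte antigen CD45, had 144 ± 33.3 CPM in MEFs, 0.188 ± 0.131 in CiSCs and 25.0 ± 1.52 in MSCs. Sertoli cell markers summed to 195 and 228 CPM in MEFs, 4854 and 4125 in CiSCs and 6122 and 9036 in MSCs. Of 11 tested, 3 were higher, 1 was lower and 7 were not called in CiSCs against MEFs (19.6% higher and 21.3% lower over all genes). In CiSCs against MSCs 10 of the 11 were lower (25.1% over all genes), so the CiSC sum does not stand for the list. Both MSC libraries also carried the list of Leydig cells, the steroid-making cells between the tubules, at 1692 and 1731 CPM. In MEFs the Leydig sum was 11.6 and 13.1 CPM and in CiSCs it was 12.3 and 11.3 CPM. Cyp11a1, the first enzyme of steroid synthesis, had 783 ± 14.5 CPM in MSCs, against 0.205 ± 0.00396 CPM in MEFs and 0.0950 ± 0.0681 CPM in CiSCs. Lhcgr and Hsd17b3, which adult Leydig cells express, and Fshr, the Sertoli cell hormone receptor, did not exceed 0.217 CPM in any library and are named after their values were seen. Cdh5, Pecam1 and Robo4 were high in the same libraries as the Leydig list. The mural list of 12 pericyte and smooth muscle genes summed to 3234 and 2647 CPM in MEFs, 1808 and 1734 in CiSCs, and 2950 and 2811 in MSCs.

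**Figure D5:**
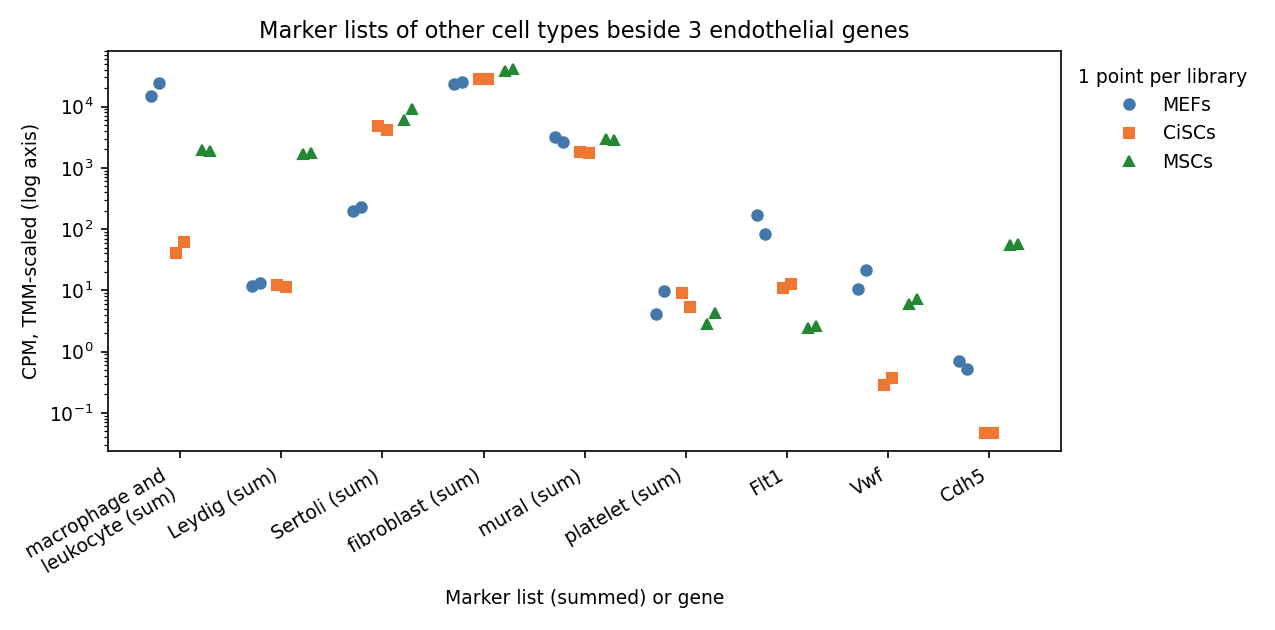
Summed CPM of marker lists of other cell types and CPM of Flt1, Vwf and Cdh5 (x axis) on a log axis (y axis), 1 point per library. The macrophage and leukocyte sum runs from 40.8 CPM in CiSCs1 to 24410 CPM in MEFs2, and the Leydig sum is at 1692 and 1731 CPM in MSCs alone against 11.3 to 13.1 CPM elsewhere.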

How the data were processed

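RNA of 6 mouse libraries (2 each of MEFs, CiSCs and MSCs) had been sequenced on the BGISEQ-500 platform. The authors deposited 1 table per library with expected counts (estimated reads, fractions allowed) per Entrez gene, and 42.0% to 43.8% of the values were not whole (tolerance 1e-09). HISAT and the build mm9 had been used, per the submitters' processing notes, while the counting program, annotation and strand are not given in the sources used here. Of 20007 identifiers, 18891 matched a symbol in a RefSeq table of GRCm38.p6.

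Counts were rounded and fitted in R 4.3.3 with edgeR 4.0.16 (filterByExpr, TMM, quasi-likelihood F tests, two-sided) on all 6 libraries in 3 groups, with 3 residual degrees of freedom and Benjamini-Hochberg adjustment over 15272 genes at 0.05. The fit was tested on simulated data. SE values of log2 fold changes are their size over the root of F. Counting ratios carry exact 95% binomial intervals. Log2 CPM used a prior count of 2. Coding lengths are of the longest coding sequence in GENCODE M21. DESeq2 1.42.0, other scalings and filters, a stricter threshold, a replicate block and leaving out each library were alternatives.

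The 10 genes and all lists were chosen with earlier results of these data known. All 10 genes are described, and from each list up to 6 genes with the smallest adjusted p in a comparison, the 2 with the highest mean level, and others only where said to be named after their values were seen. No sequences are printed beyond the RefSeq promoter table.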

Additional observations from a re-analysis of the deposited data

How the results depend on the processing

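Of the values for the 10 genes under the alternatives, 372 stayed on the same side of the threshold, 35 were no longer past it, 1 came past it (Tek in CiSCs against MSCs with only those 2 groups fitted) and 1 uncalled value changed sign; no called value reversed. In MSCs against MEFs, 5 of the 10 genes were higher where at least 5 CPM in at least 2 libraries was asked for, which left 7 of the 10 tested. The number lower was 1 at an adjusted p under 0.01. Leaving out 1 library at a time gave 2 to 3 genes higher and 4 to 5 lower in CiSCs against MEFs, 6 to 8 higher and 1 to 2 lower in MSCs against MEFs, and 1 to 2 higher and 6 to 7 lower in CiSCs against MSCs. The mean summed level of the 10 genes was 122 CPM in CiSCs and 284 CPM in MSCs on plain library totals. It was 26.2 and 108 CPM without Eng, where MEFs had 155 CPM, and 299 CPM in MSCs without Pecam1. Pearson correlation shared 0 of the 6 genes nearest to Cdh5. Within the 250 bases before the start, AGGAAG stood in 28.8% of promoters, against 34.0% in the whole window. Dividing by the longest transcript, chosen after seeing the data, left 4 of the 10 genes at the same rank in MEFs. Depth limits Tek, Pecam1 in CiSCs and MEFs, and Cdh5 in CiSCs.

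Over all genes, 2998 were higher and 3252 lower in CiSCs against MEFs, 3436 and 3061 in MSCs against MEFs, and 2697 and 3837 in CiSCs against MSCs. At an adjusted p under 0.01 these were 1707 and 2067, 2297 and 1712, and 1577 and 2747. Leaving out 1 library gave 1473 to 4646 and 1922 to 4841, 2094 to 4957 and 1422 to 4788, and 1343 to 4238 and 2567 to 5131. With only the 2 groups fitted, CiSCs against MSCs gave 4445 and 4883. Without scaling beyond totals it gave 4241 and 3211, and CiSCs against MEFs and MSCs against MEFs gave 3681 and 2781 and 3058 and 3833, with the median of all genes at 0.21, 0.11 and -0.10 on the log2 scale. The causes were not tested.

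The groups share replicate numbers, but no label says that they pair libraries, and the correlations of same-numbered deviations were -0.215 (MEFs and CiSCs), 0.138 (MEFs and MSCs) and -0.129 (CiSCs and MSCs). With the replicate block, 7 of the 10 genes were higher in MSCs than in MEFs, since Tek was no longer called (adjusted p = 0.0795), and no other call for the 10 genes changed. Over all genes the block gave 2644 higher and 2824 lower in CiSCs against MEFs, 3095 and 2577 in MSCs against MEFs, and 2302 and 3512 in CiSCs against MSCs.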

Other observations

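Of 7 lymphatic genes, 6 were in the tables and 3 had enough reads to be tested. Prox1, the transcription factor of lymphatic identity, had 0.308 ± 0.0785 CPM in MEFs, 0.235 ± 0.130 in CiSCs and 6.34 ± 0.740 in MSCs (SD, n = 2), and passed the read filter through MSCs alone. Pdpn, which encodes podoplanin and is also made by stromal cells, had 100.4 ± 2.81, 39.4 ± 3.52 and 239 ± 5.47 CPM in MEFs, CiSCs and MSCs. Flt4, the gene of the lymphatic receptor VEGFR3, went the other way, from 23.7 ± 3.25 CPM in MEFs to 10.6 ± 2.48 CPM in MSCs (log2 fold change -1.16 ± 0.21 SE, edgeR adjusted p = 0.00558).

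Among 11 tested genes of pericytes and smooth muscle, Notch3 and Rgs5 had their highest levels in CiSCs, the culture in which Emcn and Notch4 were highest. The list did not follow them. In CiSCs against MEFs 3 were higher, 4 lower and 4 not called (19.6% higher and 21.3% lower over all genes). In CiSCs against MSCs 3 were higher, 6 lower and 2 not called (17.7% and 25.1% over all genes). Notch3 had 12.7 ± 3.52 CPM in MEFs, 93.2 ± 6.89 in CiSCs and 48.7 ± 0.437 in MSCs (CiSCs against MEFs 2.87 ± 0.21 SE, edgeR adjusted p = 1.35e-04). Rgs5 had 1.25 ± 0.592, 11.7 ± 2.07 and 4.41 ± 0.00891 CPM in the same order (3.21 ± 0.34 SE, adjusted p = 6.32e-04). The contractile genes Des and Myh11 were highest in MSCs, at 43.5 ± 5.45 and 92.0 ± 1.36 CPM, and Myh11 was lower in CiSCs (3.05 and 2.95 CPM) than in MEFs (13.3 ± 4.17 CPM; -2.15 ± 0.24 SE, adjusted p = 7.68e-04). The fibroblast list of 10 genes summed to 23526 and 25051 CPM in MEFs, 28417 and 28430 in CiSCs, and 38276 and 41092 in MSCs. By gene, 3 were higher, 4 lower and 3 not called in MSCs against MEFs (22.5% higher and 20.0% lower over all genes). In CiSCs against MSCs 6 were higher, 2 lower and 2 not called (17.7% and 25.1% over all genes), so the sum ran against most of the list.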
